A study of Mus musculus with 8 samples.

Results

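The lysosomal genes examined here are 32 genes of lysosomal hydrolases, lysosomal membrane proteins and the vacuolar proton pump, chosen by symbol and matched to Ensembl identifiers in a table of 56748 genes. All 32 had a row, and all 32 passed the filter on low counts that left 16780 genes for testing. They comprise 14 hydrolases (8 cathepsins and 6 glycosidases or lipid hydrolases), 3 lumenal cofactors and carriers, 4 membrane proteins, the transcription factor Tfeb and 10 pump genes. RNA came from cells that magnetic beads against F4/80, a macrophage surface receptor, had taken from digested inguinal fat pads of wild-type (WT) female mice, and the labels give no age or strain. The Aldara group (4 libraries) had 62.5 mg of a cream with 5% imiquimod, an agonist of Toll-like receptor 7, applied to the shaved back on 3 days in a row. The Vehicle group (4 libraries) had received an equal volume of Boots Aqueous Cream/10% Vaseline Lanette Cream in the same way, and tissue of both groups was taken 24 h after the last dose. About 30000 cells pooled from 6 fat pads went into each library, from preparations in which over 90% of cells were stained for F4/80 and CD64. The labels do not say that libraries came from separate mice, so p-values reflect how far these pools vary, which may be technical. The design cannot tell imiquimod apart from other constituents of the Aldara cream.

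Lysosomes are acidic organelles in which macrophages break down engulfed cells, lipoproteins and microbes. The proton pump, or V-ATPase, acidifies the lumen with a membrane sector called V0 and a cytosolic, ATP-hydrolysing sector called V1. Cathepsins are the proteases of the lumen, glycosidases and lipases take apart glycans and lipids there, and LAMP proteins line the membrane. Many lysosomal genes are targets of TFEB, which binds a promoter element called CLEAR that is built around CACGTG. Lysosomes occur in most cell types, epithelial cells included, while some of the genes, such as Ctss, are mainly known from antigen-presenting cells.

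RefSeq promoter windows (build GRCm38.p6, from 250 bases before to 50 bases after the transcript start) were at hand for 24 of the 32 genes, and 10 of these 24 (41.7%) held CACGTG, against 8.09% of 27025 genes with a window. TCACGTGA, which contains CACGTG, was held by 5 of 24 (20.8%), against 1.12% of all genes. The longest form searched, TCACGTGA with G before and C after it, was taken as the full CLEAR consensus. It was held by 0 of 24, against 0.37% of all genes. These motifs read the same on both strands. Capitals in the stretches below mark TCACGTGA or, where the flanking bases differ, CACGTG. These stretches come from promoters of hydrolases (Ctsa, Ctsd), membrane proteins (Lamp1, Mcoln1) and pump subunits (Atp6v0d1, Atp6v1a). They lie at chr2:164833740-164833787 (plus strand), chr7:142387899-142388077 (minus), chr8:13159080-13159160 (plus), chr8:3500428-3500500 (plus), chr8:105566058-105566088 (minus) and chr16:44139364-44139411 (minus) in that order.
Ctsa: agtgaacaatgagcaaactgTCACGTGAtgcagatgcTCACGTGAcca
Ctsd: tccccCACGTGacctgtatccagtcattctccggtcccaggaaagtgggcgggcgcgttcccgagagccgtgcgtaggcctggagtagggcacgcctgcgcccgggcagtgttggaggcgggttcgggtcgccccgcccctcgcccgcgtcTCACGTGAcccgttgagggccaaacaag
Lamp1: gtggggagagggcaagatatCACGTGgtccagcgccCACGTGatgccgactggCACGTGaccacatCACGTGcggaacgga
Mcoln1: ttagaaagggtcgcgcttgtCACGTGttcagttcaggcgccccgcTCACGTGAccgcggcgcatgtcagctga
Atp6v0d1: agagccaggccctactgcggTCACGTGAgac
Atp6v1a: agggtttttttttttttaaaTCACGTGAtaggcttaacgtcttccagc
CACGTG, though not the full consensus, was thus found in promoters of 5 of 11 hydrolase genes and 3 of 6 pump genes with a window. Of the 8 genes with a window that rose with Aldara (below), Ctsa and Lamp1 held CACGTG, and 8 of the 16 with a window that did not pass the test held it. The median log2 fold change was 0.31 for the 10 genes with CACGTG and 0.55 for the 14 without it in the window. These are descriptions of letters in a window, and binding was not measured.

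Total counts were 21874780 to 34471508 per Vehicle library and 19537607 to 24340674 per Aldara library, and the least covered member, Atp6v0d2, had at least 22 counts in each library. Levels are given as CPM, counts scaled to library size with TMM factors, mean ± SD with n = 4 libraries in each group. A positive log2 fold change means higher in Aldara, its error is the standard error (SE), and adjusted p-values come from edgeR's quasi-likelihood test over all 16780 genes with Benjamini-Hochberg adjustment and a threshold of 0.05. Epithelial transcripts were abundant in all libraries: the 15 epithelial markers summed to 15984 to 21886 CPM in Vehicle against 15014 to 19083 CPM in Aldara, and none of them passed the test (4 at an unadjusted p under 0.05, and 1 higher and 3 lower with the replicate number as a block). The 20 macrophage markers summed to 1719.6 to 3624 CPM in Vehicle against 4165 to 11294 CPM in Aldara, and 14 of the 20 rose and 0 fell, with a median log2 fold change of 1.64. Adgre1, which encodes F4/80, measured 82.5 ± 20.4 CPM in Vehicle and rose to 967 ± 476 CPM. Its log2 fold change of 3.55 was the largest of the 20 markers, of which 19 were higher in Aldara and 1, Cx3cr1, lower (−0.31). Csf1r (0.99, adjusted p = 0.0648) and Fcgr1 (0.42, adjusted p = 0.436) were among the 6 that did not pass in edgeR. With the replicate number as a block 18 of the 20 rose. In such bulk libraries a change in the number of cells of a type cannot be told apart from a change of RNA per cell.

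With Aldara, 12 of the 32 lysosomal genes rose and 0 fell, where 6.98% of all genes tested rose and 3.86% fell. The 12 were the cathepsins Ctss, Ctsc, Ctsh and Ctsa, the hydrolases Hexa, Lipa, Gusb and Asah1, the saposin precursor Psap, the membrane proteins Lamp1 and Npc1, and the pump subunit Atp6v1b2. The median log2 fold change was 0.43 over the 32 genes, 0.67 over the 14 hydrolases and 0.24 over the 10 pump genes, beside 0.01 over all genes tested. Hydrolases rose in 8 of 14 cases and pump genes in 1 of 10, and the difference between these shares was not tested. The groups did not overlap, with Aldara higher, for 11 of the 32 genes, where this held for 9.97% of all genes, and with Aldara lower for 0, where this held for 7.79%. With the replicate number as a block 15 rose and 0 fell, where 9.21% of all genes rose and 6.14% fell. The count depended on single libraries, being 4, 5 and 6 without Vehicle replicate 1, 2 or 4, and 4 and 3 without Aldara replicate 3 or 4. Over all genes the number that rose also dropped, from 1171 to 703, 699 and 785, and to 658 and 629, in these fits. For the hydrolases the count was then 2, 2 and 4, and 3 and 2. For the pump it was 2 without Aldara replicate 1 and 0 without Aldara replicate 3 or 4. Without a filter on low counts 7 of the 32 rose, 3 of them hydrolases, beside 945 of all 31704 genes then tested.

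**Figure D1:**
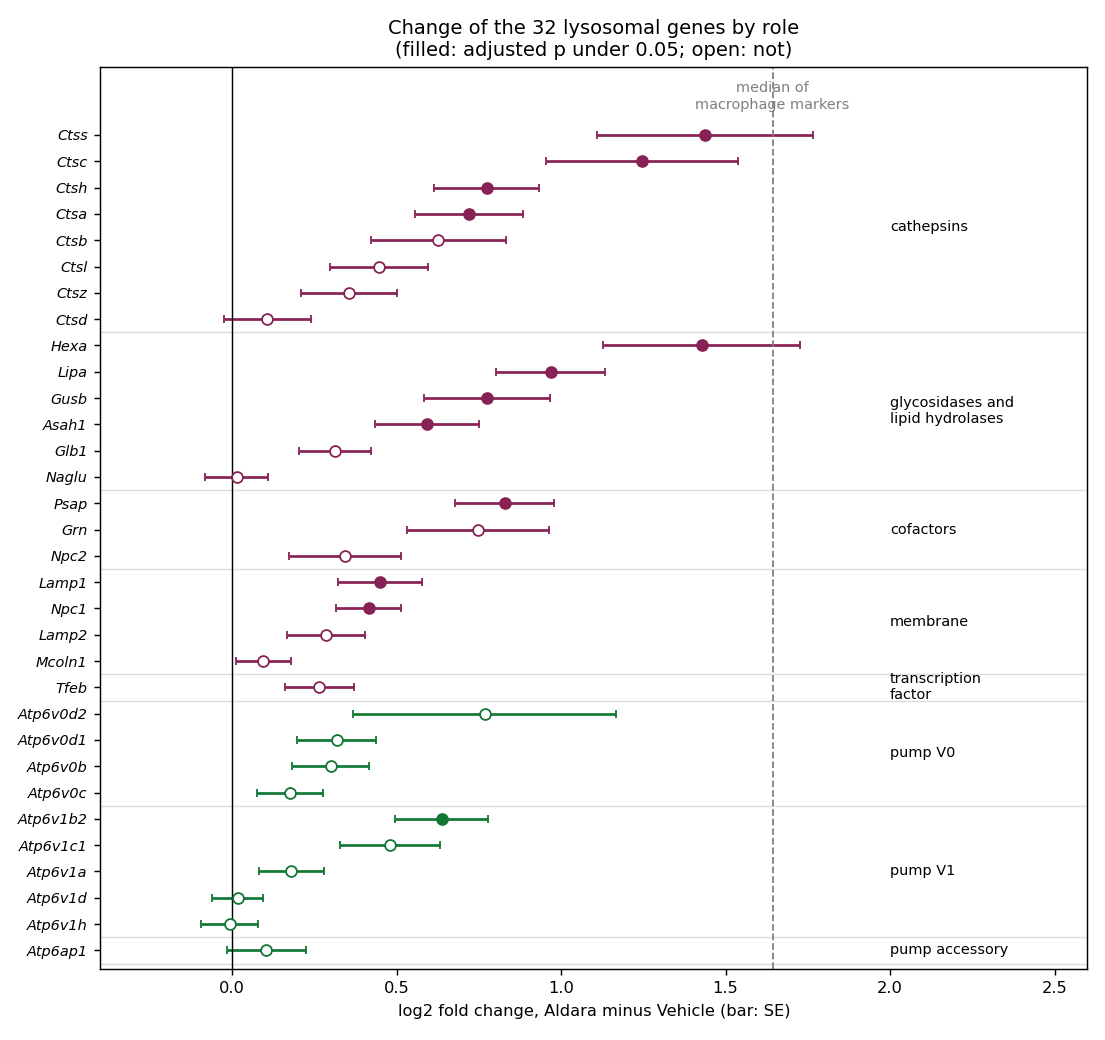
Log2 fold change (Aldara minus Vehicle, horizontal axis) of each of the 32 lysosomal genes, grouped by role, with bars for the SE, filled points for adjusted p under 0.05 and a dashed line at the median of the macrophage markers (1.64). Hydrolases reach up to 1.44 and pump genes up to 0.77, and no gene lies to the right of the dashed line.

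Among the cathepsins, Ctss (ENSMUSG00000038642), an elastin-degrading protease that also trims the invariant chain of MHC class II, measured 60.9, 94.5, 138 and 86.5 CPM in Vehicle replicates 1 to 4 and 143, 199, 373 and 314 CPM in Aldara replicates 1 to 4. The groups did not overlap, though the lowest Aldara library lay close to the highest Vehicle library, and the log2 fold change was 1.44 (SE 0.33, adjusted p = 0.0251). Ctsc (ENSMUSG00000030560), which activates granule serine proteases, measured 145, 184, 262 and 182 CPM in Vehicle against 247, 387, 607 and 593 CPM in Aldara. Here Aldara replicate 1 fell below Vehicle replicate 3, and the log2 fold change was 1.25 (SE 0.29, adjusted p = 0.0273). Ctsh (ENSMUSG00000032359), an aminopeptidase, measured 129, 142, 188 and 134 CPM in Vehicle against 200.3, 223, 298 and 293 CPM in Aldara, without overlap (log2 fold change 0.77, SE 0.16, adjusted p = 0.0125). Ctsa (ENSMUSG00000017760), a carboxypeptidase that protects neuraminidase and beta-galactosidase, measured 134, 156, 168 and 171 CPM in Vehicle against 189.8, 221, 319 and 304 CPM in Aldara (log2 fold change 0.72, SE 0.16, adjusted p = 0.0196). All Aldara libraries were above all Vehicle libraries for Ctsa, whose exons overlap those of Pltp and Neurl2 on the other strand in the GENCODE M21 annotation. The library kit is not stated to keep strand, so reads in the shared stretches cannot be assigned.

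The remaining 4 cathepsins did not pass the test. Ctsb, a broad-range protease, measured 1232 ± 168 CPM in Vehicle against 1904 ± 582 CPM in Aldara (log2 fold change 0.63, adjusted p = 0.0775, and 0.0117 with the replicate block). Ctsl, a cysteine protease, measured 269 ± 32.9 and 366 ± 74.9 CPM (log2 fold change 0.45, adjusted p = 0.0811, and 0.0103 with the replicate block). For both, Aldara replicates 3 and 4 were above every Vehicle library and Aldara replicate 1 was not. Ctsz, a carboxypeptidase, measured 158 ± 9.06 and 202 ± 45.5 CPM (adjusted p = 0.149). Ctsd, the main aspartic protease of lysosomes, measured 517 ± 56.2 and 557 ± 91.0 CPM, with a log2 fold change of 0.11 (SE 0.13, adjusted p = 0.67), the smallest of the 8 cathepsins. Exons of Ctsb overlap Fdft1 on the other strand, and a pseudogene and an antisense gene overlap Ctsl. Those of Ctsd overlap Gm49369 on the same strand. Exons of Hexa, Lamp1, Npc1, Grn, Glb1, Ctsz, Atp6v0b and Atp6v1h also overlap those of other genes.

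Of the glycosidases and lipid hydrolases, Hexa (ENSMUSG00000025232), the alpha chain of the hexosaminidase that degrades GM2 ganglioside, measured 51.7, 74.9, 88.6 and 86.0 CPM in Vehicle against 111, 156, 280.3 and 264 CPM in Aldara. The groups did not overlap, and the log2 fold change was 1.43 (SE 0.30, adjusted p = 0.0182). Lipa (ENSMUSG00000024781), the acid lipase that frees cholesterol from lipoprotein esters, measured 67.5, 88.1, 98.2 and 81.2 CPM in Vehicle against 123, 153, 212 and 168 CPM in Aldara. It had the smallest p-value of the 32 genes (log2 fold change 0.97, SE 0.16, adjusted p = 0.00638), and its groups did not overlap. Gusb (ENSMUSG00000025534), beta-glucuronidase, measured 39.9, 42.6, 48.9 and 44.0 CPM in Vehicle against 49.4, 64.9, 99.5 and 86.8 CPM in Aldara (log2 fold change 0.78, SE 0.19, adjusted p = 0.0307). Aldara replicate 1 exceeded the highest Vehicle library by less than 1 CPM for this gene. Asah1 (ENSMUSG00000031591), acid ceramidase, measured 120.1, 111, 128 and 111 CPM in Vehicle against 125, 157, 211 and 214 CPM in Aldara, with an overlap through Aldara replicate 1 (log2 fold change 0.59, SE 0.16, adjusted p = 0.0366). Glb1, beta-galactosidase, measured 35.3 ± 1.33 and 43.9 ± 6.64 CPM without overlap and did not pass (log2 fold change 0.31, adjusted p = 0.0908). Naglu, which acts on heparan sulfate, measured 41.2 ± 3.10 and 41.6 ± 4.18 CPM (log2 fold change 0.01, SE 0.10, adjusted p = 0.946).

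Of the 3 lumenal cofactors and carriers 1 rose. Psap (ENSMUSG00000004207), cleaved into the saposins that present sphingolipids to their hydrolases, measured 1242, 1399.9, 1470.2 and 1319 CPM in Vehicle against 1947, 2006, 2911 and 2781 CPM in Aldara. The lowest Aldara library stood well above the highest Vehicle library, and the log2 fold change was 0.83 (SE 0.15, adjusted p = 0.00747). Grn, the precursor of granulins, measured 355, 389, 448 and 436 CPM in Vehicle against 438, 545, 899 and 853 CPM in Aldara. Its log2 fold change of 0.75 (SE 0.22) missed the threshold (adjusted p = 0.0524, and 0.00892 with the replicate block), and Aldara replicate 1 lay among the Vehicle libraries. Npc2, which hands cholesterol to NPC1, measured 172 ± 26.4 and 218 ± 52.8 CPM (adjusted p = 0.238).

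**Figure D2:**
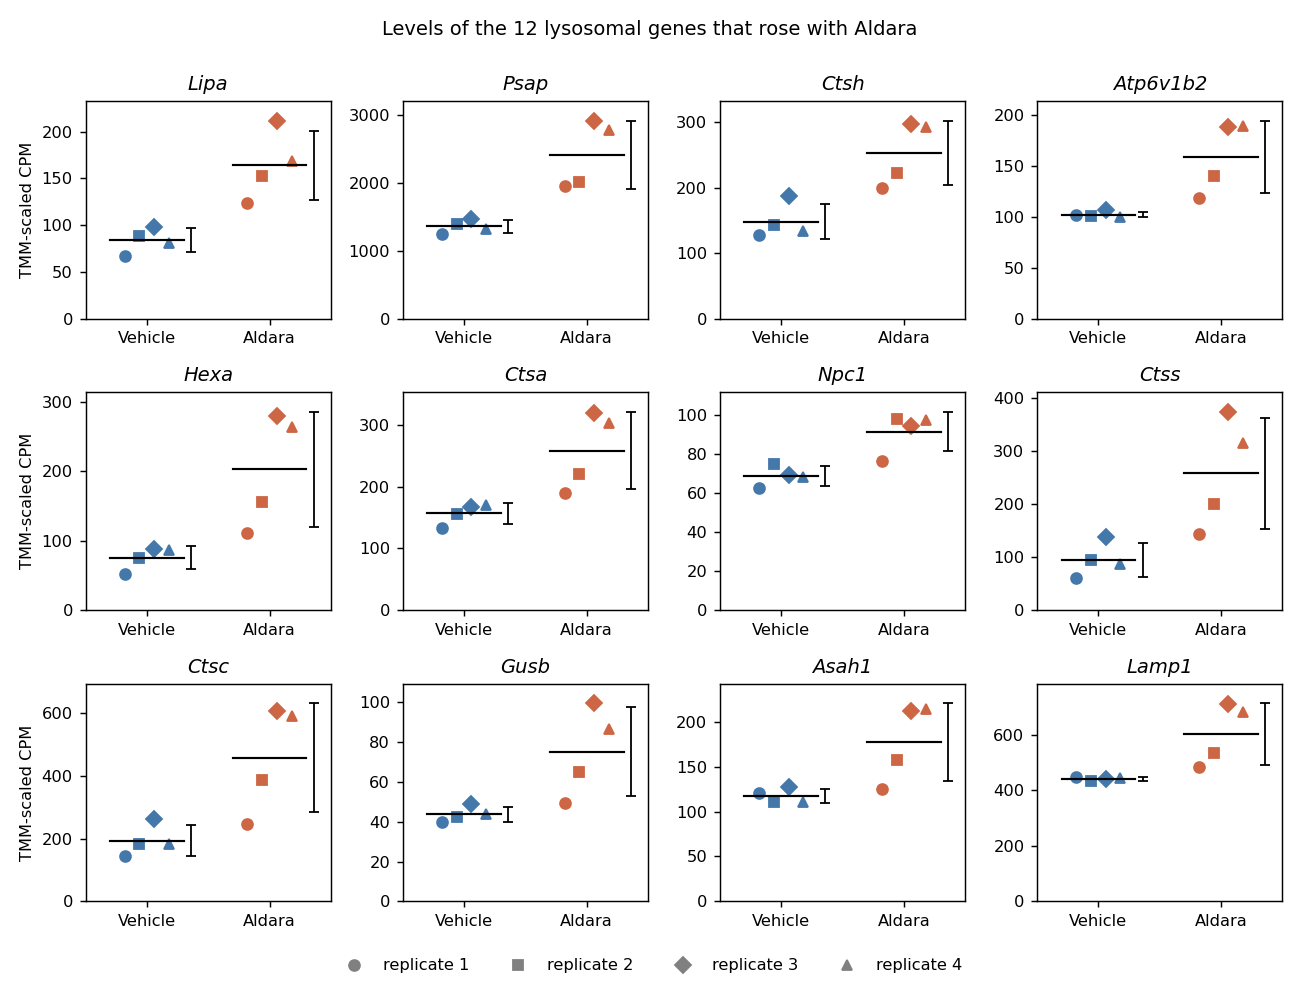
TMM-scaled CPM (vertical axis, from 0) of the 12 lysosomal genes that rose, with a marker shape for each replicate number, a line at the group mean and a bar for ± 1 SD (n = 4). Aldara replicates 3 and 4 are the highest libraries in all panels but that of Npc1, and Aldara replicate 1 is the lowest Aldara library in each.

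Among the membrane proteins, Lamp1 (ENSMUSG00000031447), a major glycoprotein of the lysosomal membrane, measured 448, 433, 439 and 445 CPM in Vehicle against 484, 536, 710.4 and 682 CPM in Aldara. The 4 Vehicle libraries lay close together and below all Aldara libraries (log2 fold change 0.45, SE 0.13, adjusted p = 0.0466). Npc1 (ENSMUSG00000024413), the exporter of cholesterol from lysosomes, measured 62.3, 74.6, 68.8 and 68.0 CPM in Vehicle against 76.4, 97.6, 94.1 and 97.1 CPM in Aldara (log2 fold change 0.42, SE 0.10, adjusted p = 0.0219). Its groups did not overlap, by the margin between Vehicle replicate 2 and Aldara replicate 1. Lamp2, which takes part in chaperone-mediated autophagy, measured 338, 320.4, 357 and 326 CPM in Vehicle against 343, 369, 434 and 489 CPM in Aldara, with overlap (log2 fold change 0.28, SE 0.12, adjusted p = 0.156). Mcoln1, the calcium channel TRPML1, measured 56.9, 47.9, 56.2 and 53.0 CPM in Vehicle against 53.0, 57.2, 60.7 and 57.7 CPM in Aldara (log2 fold change 0.10, SE 0.08, adjusted p = 0.529). Tfeb measured 17.3, 20.4, 16.7 and 16.6 CPM in Vehicle against 22.2, 19.3, 22.5 and 21.2 CPM in Aldara. Aldara replicate 2 fell below Vehicle replicate 2, and Tfeb did not pass (log2 fold change 0.27, SE 0.11, adjusted p = 0.137).

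Of the 10 pump genes only Atp6v1b2 passed the test in edgeR. Atp6v1b2 (ENSMUSG00000006273), the B subunit of V1 found in most tissues, measured 102, 101, 107 and 100.0 CPM in Vehicle against 119, 141, 189 and 189.8 CPM in Aldara. The Vehicle libraries differed little and lay below every Aldara library (log2 fold change 0.64, SE 0.14, adjusted p = 0.0167). Of the other V1 subunits, Atp6v1c1, which joins the sectors, measured 42.9 ± 5.43 and 59.9 ± 13.0 CPM (log2 fold change 0.48, adjusted p = 0.0701, and 0.0489 with DESeq2). Atp6v1a, the catalytic subunit, measured 182 ± 7.22 and 207 ± 24.6 CPM (0.18, adjusted p = 0.285). Atp6v1d, part of the central stalk, and Atp6v1h, a regulatory subunit, measured 82.0 ± 4.39 and 69.6 ± 5.13 CPM in Vehicle against 83.0 ± 4.31 and 69.2 ± 4.93 CPM in Aldara. On the log2 scale they differed by 0.02 (SE 0.08) and −0.01 (SE 0.09), the latter the only value below 0 among the 32 genes, and the sign of both changed when single libraries were left out.

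In the V0 sector no gene of the 4 passed (edgeR, and also DESeq2 and limma voom; 2 of 4 at an unadjusted p under 0.05). Atp6v0d1 and Atp6v0b, subunits of the membrane sector, had log2 fold changes of 0.32 (SE 0.12, adjusted p = 0.114) and 0.30 (SE 0.12, adjusted p = 0.128). Atp6v0c, which forms the proteolipid ring, measured 182 ± 7.02 and 205 ± 25.6 CPM (adjusted p = 0.307), and 2 processed pseudogenes are named after it. Atp6v0d2, the paralog of Atp6v0d1 known from osteoclasts and macrophages, was rare, at 1.03, 1.87, 1.92 and 0.835 CPM in Vehicle against 0.982, 2.23, 3.50 and 2.98 CPM in Aldara. The groups overlapped widely, and its log2 fold change of 0.77 had an SE of 0.40 (adjusted p = 0.258), the largest fold change and the largest SE of the pump genes. Atp6ap1, an accessory protein of the pump, measured 219.9 ± 24.6 and 236 ± 31.6 CPM (adjusted p = 0.638).

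Hydrolases and pump genes were next compared within each library, where the scaling between libraries cancels. With each gene set to 0 at its Vehicle mean, the mean log2 CPM of the 14 hydrolases was 0.24, 0.49, 1.04 and 0.92 in Aldara replicates 1 to 4 and between −0.18 and 0.18 in Vehicle. That of the 10 pump genes was −0.02, 0.16, 0.50 and 0.47 in Aldara and between −0.14 and 0.10 in Vehicle. The hydrolases minus the pump measured 0.25, 0.33, 0.53 and 0.45 in the Aldara libraries and −0.21, −0.02, 0.09 and 0.14 in the Vehicle libraries. All 4 Aldara libraries were thus above all 4 Vehicle libraries in this difference, with a mean of 0.39 ± 0.13 in Aldara against 0 ± 0.15 in Vehicle. No test was made of it because the genes were chosen with results known. The single genes of the 2 sets overlapped in their changes, with Ctsd and Naglu below most pump genes and Atp6v1b2 and Atp6v0d2 near the hydrolase median.

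**Figure D3:**
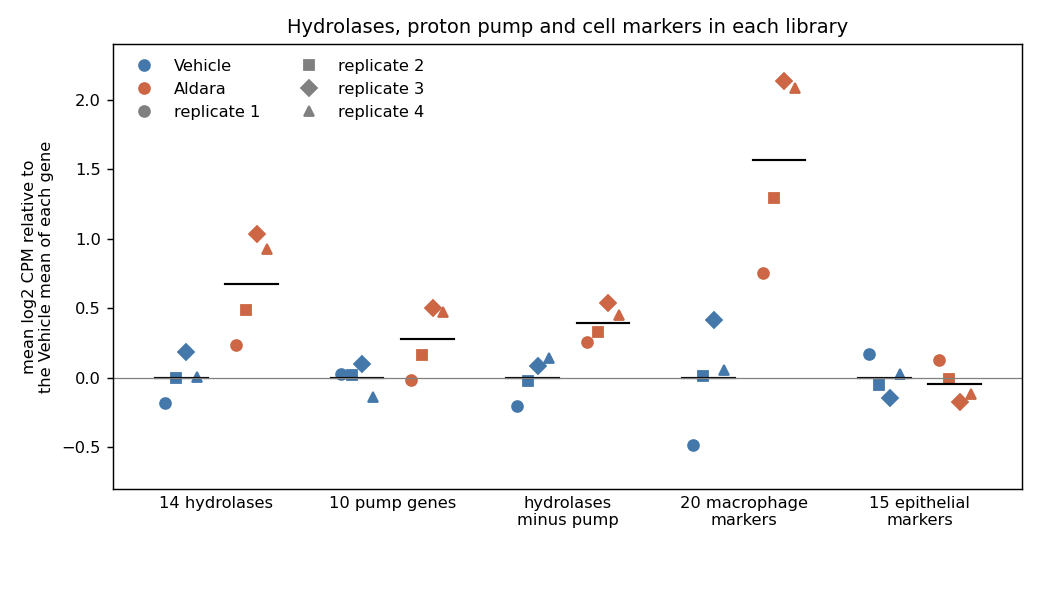
Mean log2 CPM relative to the Vehicle mean of each gene (vertical axis), per library, for hydrolases, pump genes, their difference, macrophage markers and epithelial markers, with a line at each group mean. The hydrolases of the 4 Aldara libraries lie between 0.24 and 1.04, the macrophage markers between 0.75 and 2.13, and the epithelial markers of both groups between −0.17 and 0.17.

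The Aldara libraries differed among themselves in the same order for most of these genes. Replicates 3 and 4 were the highest Aldara libraries for 29 of the 32 genes, and replicate 1 was the lowest for 27. The geometric mean of the 20 macrophage markers was 102, 147, 264 and 255 CPM in Aldara replicates 1 to 4 and 43.1, 60.8, 80.5 and 62.6 CPM in Vehicle replicates 1 to 4. The macrophage markers therefore stood highest in the same libraries. The geometric mean of the 15 epithelial markers was 665, 606, 540.0 and 563 CPM in Aldara and 551 to 686 CPM in Vehicle, with overlap. Markers of other cells moved as well. The 10 neutrophil markers summed to 5.25 to 12 CPM in Vehicle and 18.9 to 57.9 CPM in Aldara, nearly all from Csf3r. Csf3r, the only one tested, rose to 17.4, 31.2, 55.9 and 45.9 CPM in Aldara replicates 1 to 4. The rest were too rare to test, with S100a8 at 56 and S100a9 at 41 counts over all libraries and Ly6g at 0. The 7 B cell markers summed to 26.9 to 46.0 and 65.6 to 157 CPM, mostly from Ighm (61.8, 87.7, 148 and 145 CPM in Aldara replicates 1 to 4), and both that were tested, Ighm and Cd79b, rose. These too were lowest in Aldara replicate 1 and highest in replicates 3 and 4. The 7 fibroblast markers summed to 218 to 578 CPM in Vehicle and 74.7 to 154 CPM in Aldara, and 5 of them fell and 0 rose (median log2 fold change −1.61). Of the 7 osteoclast markers tested 3 rose (Acp5, Mmp9 and Nfatc1) and 0 fell, with 4 log2 fold changes above 0 and 3 below. Dcstamp (−1.34, adjusted p = 0.0818) was lower in Aldara without overlap. Ocstamp (−1.21) fell with the replicate block (adjusted p = 0.0369). Among 6 adipocyte markers 0 fell and 2 rose, Cidec from 0.664 to 2.83 CPM and Adipoq from 0.569 to 1.25 CPM. Fabp4, the most abundant of them, averaged 156 CPM under Vehicle but 131 CPM under Aldara (adjusted p = 0.521). Sums of the 6 overlapped, at 139 to 195 CPM in Vehicle against 96.6 to 194 CPM in Aldara. Of 6 endothelial and 2 T and natural killer cell markers tested none passed in edgeR, with or without the replicate block (0 at an unadjusted p under 0.05). The part of any of these cell types in the lysosomal changes was not tested.

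To set the lysosomal genes beside macrophage transcripts, the same edgeR test was run with libraries scaled to the geometric mean of the macrophage markers. A value below 0 then means that a gene rose less than these markers, did not change or fell. It is a ratio and not a level per cell. On this scale the median of all genes was −1.47, 89.6% of all genes were called lower and 0.381% higher. Of the 32 lysosomal genes 23 were called lower and 0 higher. Of the 14 hydrolases 7 were called lower, with a median of −0.92, and 11 were with the replicate block. Of the 10 pump genes 9 were called lower, with a median of −1.31. Ctss (−0.17, SE 0.43, adjusted p = 0.705), Hexa (−0.21, SE 0.43, adjusted p = 0.631) and Ctsc (−0.37, SE 0.43, adjusted p = 0.397) lay nearest to the markers. Their SE allows changes above or below that of the markers. Ctsd (−1.47, adjusted p = 0.00203), Naglu (−1.51, adjusted p = 0.00134) and Atp6v1h (−1.52, adjusted p = 0.00137) lay close to the median of all genes.

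Levels of different genes can be compared only per length, here as CPM per kilobase of all annotated exons. On that scale Psap was the highest of the 32 genes in Vehicle (495), followed by Ctsd (220.0), Ctsb (204) and Lamp1 (165). In Aldara the order was Psap (879), Ctsb (315), Ctsd (237) and Lamp1 (225). Ctss went from 69.9 to 189 CPM per kilobase. The pump genes lay between 0.521 (Atp6v0d2) and 72.7 (Atp6ap1) in Vehicle.

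Other genes of the pathway were read from the same test. Of 40 other lysosomal hydrolases 39 were tested, and 15 rose and 2 fell, where 6.98% of all genes rose and 3.86% fell. The median log2 fold change of the 39 was 0.29. Acp5, the tartrate-resistant acid phosphatase of macrophages and osteoclasts, went from 8.32 ± 1.46 to 59.0 ± 25.0 CPM, a log2 fold change of 2.82 with an SE of 0.31 (adjusted p = 0.00203). Plbd1, a phospholipase B-like protein, rose from 17.1 ± 4.48 to 105 ± 45.8 CPM, Idua, which degrades dermatan and heparan sulfate, by 0.76 (SE 0.13) and Acp2, an acid phosphatase, by 0.75 (SE 0.14) on the log2 scale. The 2 that fell, named after their values were seen, were Fuca1, a fucosidase, from 174 ± 38.8 to 112 ± 7.44 CPM, and the aspartic protease Ctse, from 34.8 ± 7.06 to 20.5 ± 3.76 CPM. The count of hydrolases that rose was 8, 8 and 9 without Vehicle replicate 1, 2 or 4 and 9 and 6 without Aldara replicate 3 or 4, and Ctse did not pass without Aldara replicate 3 (adjusted p = 0.0503). Of 18 other pump genes tested, which include pump-associated proteins, 1 rose and 0 fell, a share near the 6.98% of all genes that rose, with a median of 0.13. The riser was Ncoa7, a TLDc-domain protein that interacts with the pump (0.87, SE 0.13, adjusted p = 0.00324), and the count was 2 without Aldara replicate 1 and with the replicate block. Tcirg1, the a3 subunit of V0, measured 182 ± 16.1 and 228 ± 22.7 CPM (adjusted p = 0.0621), Dmxl2, which helps to assemble the pump, 20.4 ± 1.97 and 28.1 ± 5.48 CPM (adjusted p = 0.0557) and Atp6v1g1 127 ± 13.8 and 109 ± 6.86 CPM (adjusted p = 0.16).

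**Figure D4:**
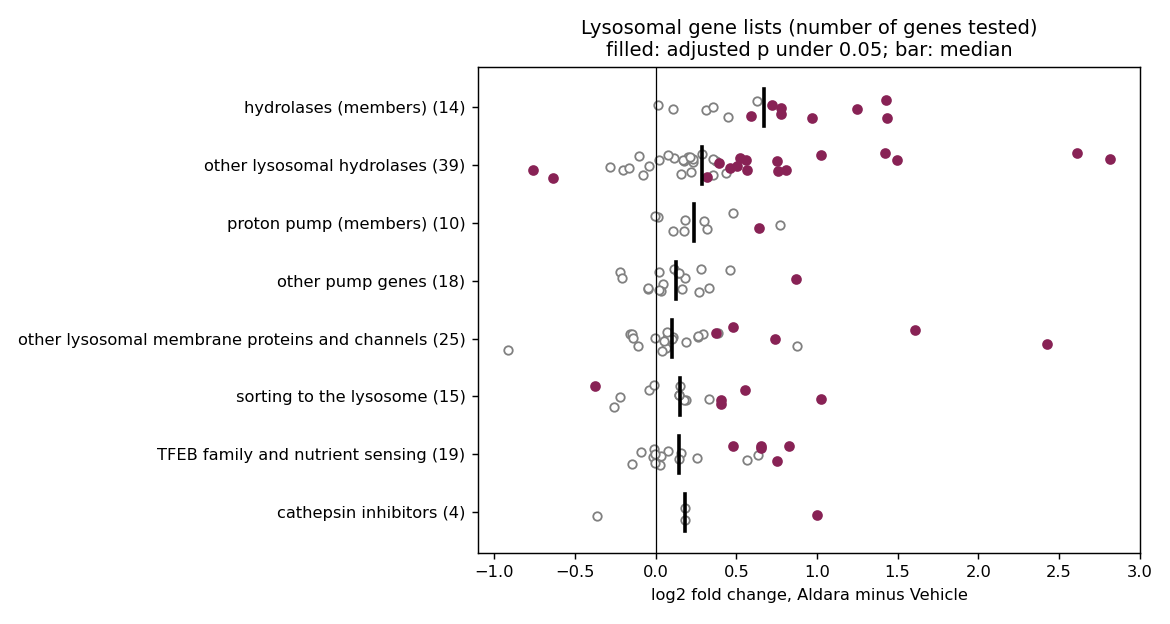
Log2 fold change (horizontal axis) of each tested gene in the hydrolase and pump sets and in 6 further lysosomal lists, with filled points for adjusted p under 0.05 and a bar at each list's median. The hydrolase median lies at 0.67, and the medians of the other lists lie between 0.10 and 0.29.

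Of 25 other lysosomal membrane proteins and channels tested, 5 (20%) rose and 0 fell, where 6.98% of all genes rose and 3.86% fell. The list's median was 0.10. Slc15a3, a transporter of peptides and histidine, went from 20.8 ± 3.25 to 112 ± 59.7 CPM (log2 fold change 2.43, SE 0.38), and Laptm5, a lysosomal protein of blood cells, from 121 ± 23.0 to 367 ± 158 CPM (1.60, SE 0.30), a call lost without the filter on low counts (adjusted p = 0.0706). The channel Tpcn2 rose by 0.74 (SE 0.14) and Cln3 by 0.48 (SE 0.11), although Cln3 failed the test (adjusted p up to 0.0628) on leaving out Vehicle replicate 1 or 4, or Aldara replicate 2 or 3. The count of 5 fell to 3 without Vehicle replicate 4 or Aldara replicate 2 or 3, where 785, 829 and 658 of all genes rose. Of 19 genes of the TFEB family and of nutrient sensing at the lysosome 5 (26.3%) rose and 0 fell, with a median of 0.14. Tfe3, a close relative of Tfeb, went from 66.7 ± 3.23 to 105 ± 14.3 CPM (0.65, SE 0.10, adjusted p = 0.00448), and Flcn, a GTPase-activating protein that controls TFE3 and TFEB, from 73.9 ± 5.27 to 131 ± 23.1 CPM (0.83, SE 0.12, adjusted p = 0.00382). Fnip2, a partner of folliculin, rose by 0.65 (SE 0.16) and the GTPase Rragc by 0.48 (SE 0.12). The count of 5 was 2 on leaving out Vehicle replicate 1, 2 or 3, or Aldara replicate 2 or 3, and 3 without Aldara replicate 4. Over all genes 703, 699 and 942, then 829 and 658, and 629 rose without these libraries. Without any of these libraries Fnip2 did not pass (highest adjusted p = 0.0753), and Rragc passed in 1 of 8 such fits, that without Aldara replicate 1 (highest adjusted p = 0.0968).

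Of 15 genes of sorting to the lysosome 4 (26.7%) rose and 1 fell, where 6.98% of all genes rose and 3.86% fell. The list's median was 0.15. The adaptor Gga3 rose by 0.40 (SE 0.08), Nagpa, which uncovers the mannose 6-phosphate tag, by 0.56 (SE 0.12), Cln8, a carrier of hydrolases out of the endoplasmic reticulum, by 1.02 (SE 0.24) and the retromer subunit Vps26a by 0.40 (SE 0.11), whereas Gga2, another adaptor and named after its value was seen, fell from 28.0 ± 2.14 to 21.6 ± 2.62 CPM (adjusted p = 0.0488). The count of 4 was 2 without any 1 Vehicle library or Aldara replicate 3, and 1 without Aldara replicate 4. Over all genes 629 to 942 rose in these fits. Gga3 passed in all 8 fits without 1 library, Nagpa in all but that without Aldara replicate 4 (adjusted p = 0.0507), Cln8 in those without Aldara replicate 1 or 2 (highest adjusted p = 0.072), Vps26a in that without Aldara replicate 1 (0.134) and Gga2 in that without Aldara replicate 3 (0.123). Cln8 (0.118) and Gga2 (0.0583) were also lost without the filter on low counts, Gga2 with limma voom (0.0545), and Vps26a under RLE (0.0538) or upper-quartile factors (0.0597) and with limma voom (0.0536). Of 11 inhibitors of cathepsins 4 were tested. Serpinb6a, an intracellular serpin, rose from 69.6 ± 8.79 to 139 ± 35.0 CPM (1.00, SE 0.17, adjusted p = 0.0064). Cystatin C (Cst3) measured 431 ± 84.5 and 489 ± 155 CPM (adjusted p = 0.667), Cstb 75.1 ± 7.02 and 85.1 ± 9.10 CPM (adjusted p = 0.293) and Serpinb1a 3.55 ± 0.835 and 2.74 ± 0.68 CPM (adjusted p = 0.391).

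The calls on the 12 lysosomal genes differed in how far they rested on single libraries. Lipa, Psap and Ctsh passed in each of the 8 fits that left out 1 library, where the adjusted p-value reached at most 0.0279, 0.029 and 0.0481. The call on Atp6v1b2 was lost without Aldara replicate 3 or 4 (highest adjusted p = 0.0595), that on Hexa (0.0686) on leaving out Vehicle replicate 1 or 2, or Aldara replicate 4, and that on Ctsa (0.0707) on leaving out the same Vehicle libraries, or Aldara replicate 3 or 4. For Ctss (0.0873) and Ctsc (0.0941) this held for Vehicle replicates 1, 2 and 4 and Aldara replicates 3 and 4, and for Npc1 (0.0769) for Vehicle replicates 1 and 4 and Aldara replicates 2, 3 and 4. The calls on Gusb (0.108), Asah1 (0.117) and Lamp1 (0.146) were held in 1 of the 8 fits, that without Aldara replicate 1. Without that library Ctsb (adjusted p = 0.0168), Ctsl (0.0376), Ctsz (0.0226), Glb1 (0.0469), Grn (0.00508) and Atp6v1c1 (0.0157) passed as well. The call on Lamp1 was also lost under RLE (0.0587) or upper-quartile factors (0.0578) and with limma voom (0.0528), as was that on Asah1 with limma voom (0.0507).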

How the data were processed

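RNA-seq was carried out on F4/80-enriched cells of mouse inguinal fat pads, with 4 Vehicle and 4 Aldara libraries grouped by their titles. The authors deposited raw counts per gene for all 8 libraries in 1 table. The build mm10 and the tools featureCounts 1.5.0-p3, HISAT2 2.0.5 and DESeq2 are named by the submitters' processing notes, which give no counting options or strand setting here. Total counts were 19537607 to 34471508 per library, and no 2 libraries of the same group agreed within sampling noise.

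Symbols were matched to 91.8% of identifiers, and rows without a symbol held at most 1.29% of a library's counts. Counts were filtered with filterByExpr, scaled by TMM and tested with edgeR 4.0.16 (glmQLFit, glmQLFTest, R 4.3.3) with Benjamini-Hochberg adjustment. The procedure was tested on simulated data (16578 genes, 200 changed): it recovered 67% of log2 changes of 1 and 89% of those of 2, with 4.29% false calls. Smaller changes, such as the medians of 0.43 over the members and 0.24 over the pump genes, were not simulated. Their recovery is therefore unknown. Genes were drawn independently in the simulation, so the share of false calls where genes vary together within a library is also unknown. Alternatives were RLE and upper-quartile factors, no filter, DESeq2 1.42.0, limma 3.58.1 (voom), each library left out and the replicate number as a block. Relative to macrophage markers, libraries were scaled to the geometric mean of 20 genes. Log2 CPM used a prior count of 2.

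Replicate numbers come from the titles. Deviations from the group means correlated between same-numbered libraries (0.108 to 0.228) and less between others (−0.216 to 0.0819). The labels do not say what a shared number means. The main fit and its calls used no block, and the replicate number entered as a block only as an alternative. The members and lists were chosen with earlier results of these data known. Library values were given for the 12 members of smallest p and for Lamp1, Lamp2, Tfeb, Mcoln1 and Atp6v0d2, with up to 4 genes of smallest p from each other list, and values of Grn were added. Promoters came from RefSeq (GRCm38.p6), and exon lengths and overlaps from GENCODE M21.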

Additional observations from a re-analysis of the deposited data

Results flagged for a closer look

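Npc1 in Aldara replicate 1 measured 76.4 CPM, below the 94.1 to 97.6 CPM of the other Aldara libraries, and its gap to the nearest of them was 0.832 of the group's range, above Dixon's critical value for 4 samples. This was the only one among 70 groups of values checked, where chance alone flags about 1 in 20.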

How the results depend on the processing

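All 32 lysosomal genes were recomputed under RLE and upper-quartile factors, no filter, DESeq2, limma voom, the replicate block and without each library. Atp6v1b2, Ctsa, Ctsh, Lipa, Npc1 and Psap passed in the 6 fits on all libraries. Without a filter 945 of 31704 genes, 7 members and 3 hydrolases rose, 2 other pump genes rose and 0 sorting genes fell, also 0 with voom. The calls on Ctsc (adjusted p = 0.13), Ctss (0.126), Gusb (0.112), Hexa (0.0998) and Asah1 (0.0533) were then lost. With DESeq2 1532 genes and 15 members rose, and Ctsb (adjusted p = 0.0287), Grn (0.00916) and Atp6v1c1 (0.0489) passed as well. In that fit 1192 genes fell, 2 pump genes and 3 other pump genes rose and 1 other membrane protein fell. With upper-quartile factors 990 genes fell against 647, and 49.7% of calls rose against 64.4%. With the replicate block 1030 genes fell and 2 other pump genes rose, and no call on a member was lost. Relative to macrophage markers, 64 genes were higher and 7 hydrolases lower, against 98 and 11 with the block and 37 and 11 with a reference of 5 genes. With the reference without Adgre1 the numbers were 70 and 6. Without single libraries 53 to 78 genes were higher and 5 to 10 hydrolases lower on this scale.

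Signs near 0 turned: upper-quartile factors gave −0.039 for Naglu, −0.039 for Atp6v1d and −0.041 for Krt8, and Krt8 was −0.0023 with RLE and DESeq2 and −0.0036 without a filter. Without single libraries Atp6v1h ranged from −0.066 to 0.031, Naglu from −0.057 to 0.053, Atp6v1d from −0.027 to 0.048, Krt8 from −0.10 to 0.15 and Cst3 from −0.015 to 0.31. Counts that rose then ranged from 629 to 1405 (all genes), 3 to 18 (members), 2 to 12 (hydrolases), 0 to 2 (pump), 6 to 18 (other hydrolases), 3 to 6 (other membrane proteins), 1 to 2 (other pump genes), 1 to 5 (sorting) and 2 to 5 (TFEB family). Counts that fell ranged from 323 to 664 (all genes), 1 to 2 (other hydrolases) and 0 to 1 (sorting). The hydrolase median minus the pump median was 0.43, from 0.36 to 0.50 without single libraries from 0.43 to 0.52 with other memberships and 0.40 with means. The cause of these changes was not tested. Depth limits Atp6v0d2, at a minimum of 22 counts.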
